A study of Daucus carota with 6 samples.

Results

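The miRNAs of shredded carrot (Daucus carota) tissue held for 48 h after cutting were compared with those of tissue sampled right after cutting. The comparison took every listed miRNA with a value above 0 in at least 1 of the 4 libraries of these time points, which was 369 of the 469 names in the deposited list. The tissue came from commercial-grade carrots cut by machine after cleaning with chlorine and peeling, and the shreds were kept at 20 °C. The T0 samples were therefore shredded as well, without storage, and no library came from uncut carrot. Small RNA was sequenced from 2 libraries at T0 and 2 at T48, and 2 further libraries at T24 (24 h) are used here only beside the values they touch. The labels give no cultivar, no carrot number and no statement that the 2 libraries of a time point came from separate carrots, so the p-values below measure the spread between these libraries, which may be technical.

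A plant miRNA is a short RNA cut from a hairpin precursor and loaded into an ARGONAUTE protein, where it pairs with an mRNA along nearly its whole length and leads to cleavage or reduced translation. A few families are shared by most land plants and hold transcription factors at the levels that growth, leaf polarity and organ formation need. In Arabidopsis, miR396 acts on growth-regulating factors, miR165 and miR166 on class III HD-ZIP factors, miR160 and miR167 on auxin response factors, miR164 on NAC factors, miR171 on GRAS factors and miR168 on ARGONAUTE1 itself. Wounding by cutting sets off jasmonate signalling, wound sealing and phenolic synthesis in carrot root tissue, and miRNA levels are known to move in wounded plants.

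The value is named TPM in the deposited list. It is a read count divided by the summed miRNA reads of the library and scaled to 1000000, with no length in it, so TPM is a share and 1 abundant miRNA lowers the share of all others. A prefix in the list labels the names as new, and the text drops it. The name hsa-miR-376a-5p, for example, is a label given to a carrot sequence and not a human RNA. How far each sequence resembles its namesake was not tested, so the name classes sort labels only. By these labels, the 369 names held 26 of conserved plant families, 45 other plant-type names, 227 animal-type names, 54 names of the form mir-number without a known relative, and 17 names after viruses, algae or amoebae.

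Sequences are shown for 7 of the miRNAs that carried the most reads or set the T48 libraries apart, since a name alone does not say what was sequenced. They are written 5′ to 3′ with the seed (bases 2 to 8) in capitals.
ptc-miR396f: uUCCACGGcuuucuugaacug
ath-miR165a-3p: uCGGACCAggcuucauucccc
hsa-miR-376a-5p: uUAGAUUCgcgcacaaacucg
oan-miR-1421ag-5p: cGGUGGACugcuugagcugc
rno-miR-337-3p: uUCAGCUCacauaucucucugg
pte-miR-11943-3p: uUAUGGUGauuuauuugugugg
aca-miR-5406-5p: uUUUUAGAccaaaggcucgcu
No seed was shared among these 7 sequences. They were 20 to 22 bases long, with a GC content of 31.8% to 65.0%, and 6 began with U, the first base that Arabidopsis ARGONAUTE1 favours. The remaining one, oan-miR-1421ag-5p, began with C and had the highest GC content. Neither shown nor counted here are hpo-miR-232a-5p and gga-miR-1799. The primer list of the study gives both as shorter than these 7, and gga-miR-1799 as beginning with G.

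The libraries held 154758 and 174557 miRNA reads at T0 and 64886 and 199911 at T48, so that 1 read stood for 6.46, 5.73, 15.4 and 5.00 TPM. A name listed at 0 could have had up to 3 reads, which is 19.4, 17.2, 46.2 and 15.0 TPM in the same order. Counting error is all these limits cover, because reads copied by PCR are not independent molecules. The first T48 library was thus the shallowest and the second the deepest, and small values of the first are the least precise.

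In T0 tissue, miR396 led. At T0, ptc-miR396f took 65.2% and 64.6% of the reads of the first and second library, ath-miR165a-3p came second and hsa-miR-376a-5p next. At T48, ptc-miR396f was down to 178945 and 106577 TPM, and the leading miRNA was ath-miR165a-3p with 48.6% in the first T48 library and oan-miR-1421ag-5p with 46.8% in the second. The T48 libraries therefore shared the loss of ptc-miR396f from first place but not what stood there instead. The top 3 names took 88.0% and 89.7% of the reads at T0 and 78.5% and 85.6% at T48.

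**Figure D1:**
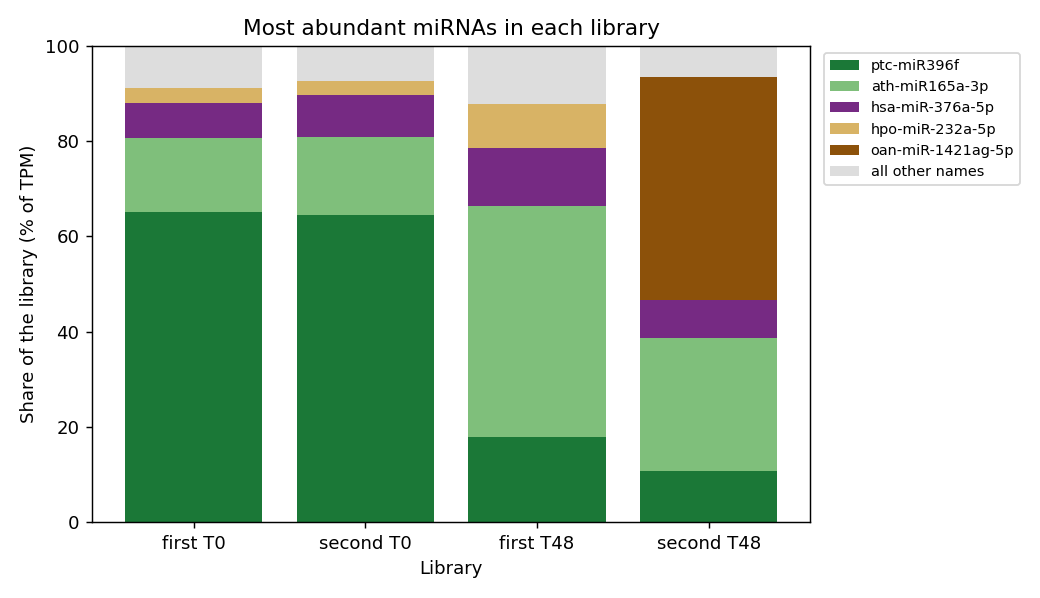
Stacked bars give the share of each library (% of its TPM) taken by 5 abundant miRNAs and by all other names, for the 2 T0 and the 2 T48 libraries. The T0 bars are alike, with ptc-miR396f at 65.2% and 64.6%, while at T48 hpo-miR-232a-5p (9.26%) is seen only in the first library and oan-miR-1421ag-5p (46.8%) only in the second.

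The most even reading of late change came from the 19 miRNAs above 0 in all 4 libraries, which need no value at 0. They took 92.0% and 93.8% of the T0 reads and 84.7% and 49.8% of the T48 reads. In 8 of them both T48 libraries lay above both T0 libraries, in 7 both lay below, and in 4 the time points overlapped. Over all 369 members, non-overlap was found for 24 names upward (6.50%) and 43 downward (11.7%). Names above 0 in only a single library tie at 0 across the time points and could not be counted. All of the non-overlapping names thus lay among the 94 names above 0 in at least 2 libraries. The percentages of the 369 are therefore not a baseline for the 19. The counts of 8 and 7 stayed the same when each value was set against the mean log level of the 19 in its own library, which takes the share of any outside miRNA out of the comparison. They did not when only the reads of oan-miR-1421ag-5p were left out of the totals. Then hsa-miR-376a-5p, dya-miR-9681-5p and ath-miR396a-5p also lay above T0 in both T48 libraries. In that setting rno-miR-337-3p and ptc-miR171l-3p, below T0 in TPM, came to overlap.

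Among the conserved families, ptc-miR396f went from 651566 and 645984 TPM in the T0 libraries to 178945 and 106577 TPM at T48. Both T48 libraries were far below the T0 pair, a log2 difference of -2.23 with a pooled SD of 0.37 between libraries of a time point, or 4.70-fold lower. In the limma fit over all 369 members its standard error, which also draws on the many names that switch between 0 and a value, was 1.19, and it was not called (Benjamini-Hochberg adjusted p = 0.392). A second miR396 name, ath-miR396a-5p, stayed low, with 123 and 115 TPM in the T0 libraries and 139 and 95.0 TPM at T48, and its time points overlapped. Another, osa-miR396e-5p, was listed at 0 in both T0 libraries and reached 3884 and 635 TPM at T48. The 3 names together went from 651688 and 646098 TPM to 182967 and 107308 TPM, so the family sum followed ptc-miR396f. How reads that match several family members were shared out between these names was not tested.

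For ath-miR165a-3p, whose Arabidopsis targets specify the upper leaf side and vascular tissue, the levels were 154092 and 161861 TPM in the T0 libraries and 485883 and 280735 TPM at T48. Both T48 libraries were higher, a log2 difference of 1.23 (pooled SD between libraries 0.40), or 2.34-fold. For ath-miR160a-5p the levels were 200.3 and 172 TPM in the T0 libraries and 2759 and 590.3 TPM at T48. This was the largest upward difference of the 19, 6.85-fold, although the T48 libraries themselves differed 4.67-fold. Its ARF targets damp auxin responses in Arabidopsis. For ath-miR164a, which restrains NAC factors at organ boundaries, the levels were 3560 and 3626 TPM in the T0 libraries and 1341 and 345 TPM at T48. Both T48 libraries lay below T0, by 5.27-fold on average, and the T48 libraries differed 3.88-fold.

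The largest downward difference of the 19 belonged to ptc-miR477e-5p, a family found in poplar and other plants, with 1014 and 951 TPM in the T0 libraries and 123 and 30.0 TPM at T48. The T48 values stand for 8 and 6 reads, and the difference was 15.8-fold lower. For ptc-miR171l-3p, a relative of the regulators of GRAS factors in Arabidopsis, the levels were 562 and 252 TPM in the T0 libraries and 108 and 155 TPM at T48. The groups did not overlap in TPM. With the reads of oan-miR-1421ag-5p left out of the totals, the second T48 library had 292 TPM and the groups overlapped. Its precursor carries a second name, mir-23, which was listed only at T24 (582 and 1169 TPM) while ptc-miR171l-3p was at 0 there. For ath-miR168a-5p, the regulator of ARGONAUTE1 in Arabidopsis, the levels of 8258 and 8106 TPM at T0 lay between the 11220 and 4262 TPM of the T48 libraries.

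The other names in the same set, plant-type, animal-type and unclassed, differed in both directions. For pab-miR3696, a spruce-type name, the levels were 291 and 475 TPM in the T0 libraries and 3514 and 1376 TPM at T48, 5.90-fold higher. For bma-miR-9507 they were 782 and 928 TPM against 3930 and 2381 TPM, and for pte-miR-11943-3p 3166 and 2263 TPM against 9447 and 5728 TPM. All 3 had both T48 libraries above both T0 libraries. The name mmu-miR-466d-5p stood apart by the nearness of its libraries, with 284 and 281 TPM in the T0 libraries and 694 and 760 TPM at T48, and it was listed at 0 in both T24 libraries. For mir-64 the levels were 3987 and 4537 TPM in the T0 libraries and 13146 and 5457 TPM at T48, and for cin-miR-4168-3p 239 and 132 TPM against 478 and 240.1 TPM. In cin-miR-4168-3p the lower T48 library was less than 1 read above the higher T0 library, so its separation is not larger than counting error.

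Downward, gga-miR-1762 had 129 and 143 TPM in the T0 libraries and 61.6 and 35.0 TPM at T48, and sja-miR-3505 had 291 and 115 TPM against 61.6 and 55.0 TPM. The T48 values of both rest on few reads. For rno-miR-337-3p the levels were 15741 and 17914 TPM in the T0 libraries and 12776 and 9034 TPM at T48, a difference of 1.56-fold lower. Ranked behind ath-miR165a-3p at T0, hsa-miR-376a-5p, had 74187 and 89174 TPM in the T0 libraries and 120211 and 79010 TPM at T48, and dya-miR-9681-5p had 1428 and 1169 TPM against 2065 and 805 TPM. In both of these the time points overlapped in TPM, and neither moved beyond the spread of its libraries. With the reads of oan-miR-1421ag-5p left out of the totals, the second T48 library had 148641 and 1515 TPM of them. Both T48 libraries then lay above T0. Set against the mean log level of the 19, the time points overlapped for both miRNAs.

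None of the 19 was called in the fit over 369 members, where 12.7% of all were called. With the fit limited to the 94 names above 0 in at least 2 libraries, 53 were called. Leaving out names of 1 library thus raises the share by itself, and a high share is not particular to the 19. With the 19 fitted alone, and so with a variance drawn only from miRNAs that were present throughout, 11 were called, 57.9% of those tested, and 9 of the 11 had a limma adjusted p of at most 0.05, all but pte-miR-11943-3p and mmu-miR-466d-5p. The 5 called upward were ath-miR160a-5p, pab-miR3696, bma-miR-9507, pte-miR-11943-3p and mmu-miR-466d-5p, and the 6 called downward were ptc-miR477e-5p, ath-miR164a, ptc-miR396f, sja-miR-3505, ptc-miR171l-3p and gga-miR-1762. Their standard errors in that fit were 0.64 to 0.66 on the log2 scale, nearly equal because the fit pooled the variance of the 19. The p-values rest on that pooling and not on more libraries, and 17 of the 19 were higher in the first T48 library than in the second. The rise of ath-miR165a-3p, at 1.23 with a standard error of 0.64, was not among them.

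**Figure D2:**
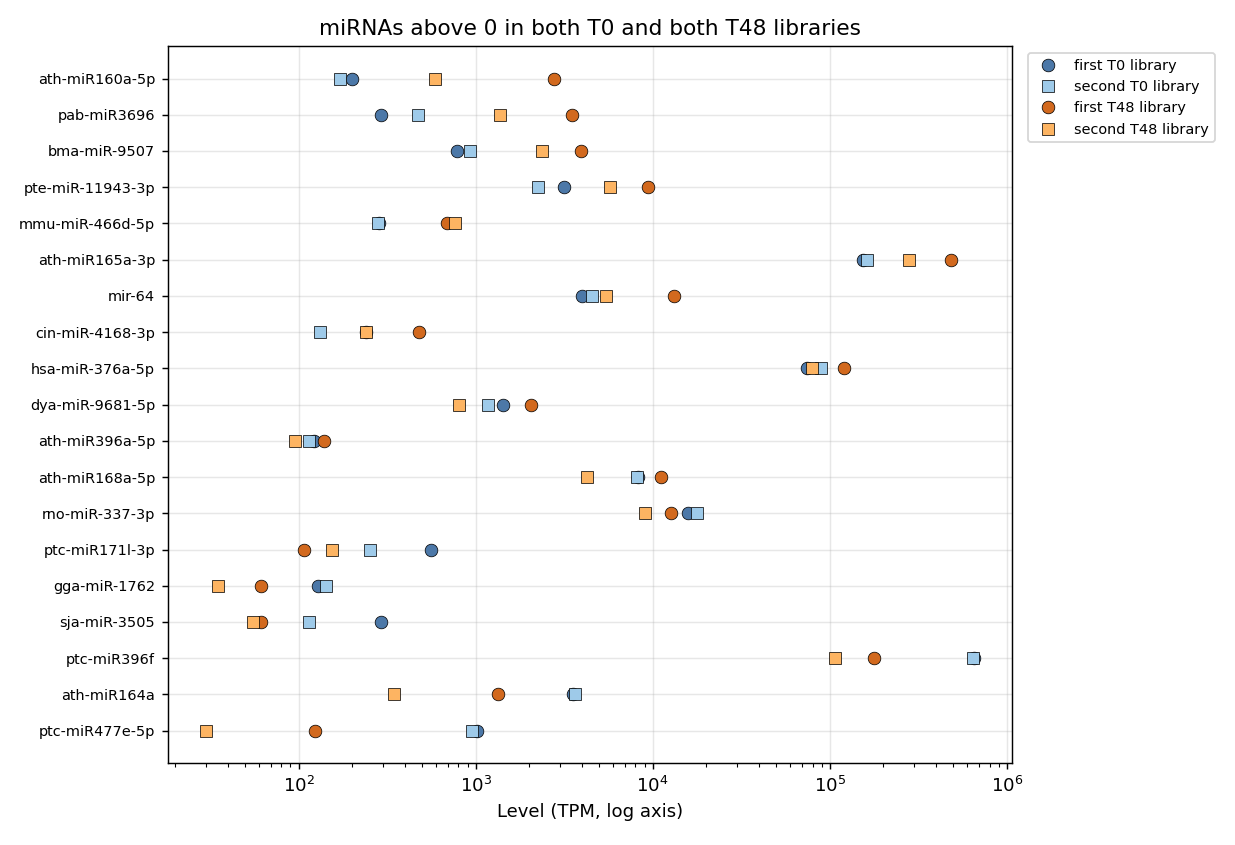
Each line is 1 of the 19 miRNAs above 0 in both T0 and both T48 libraries, with its level (TPM, log axis) in each library, ordered by the T48 to T0 difference. The T48 points lie right of the T0 points for 8 miRNAs, from ath-miR160a-5p at the top, and left of them for 7, down to ptc-miR477e-5p at the bottom, with 4 overlapping in between.

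Ratios of 2 miRNAs within the same library do not depend on its total. For some pairs the T48 libraries gave nearly the same ratio, and for others they did not. The ratio of ath-miR165a-3p to ptc-miR396f was 0.236 and 0.251 at T0, 1.16 and 0.439 at T24, then 2.72 and 2.63 in the T48 libraries. It was 11.0-fold higher at T48 than at T0, a log2 difference of 3.46, and leaving out any 1 of the 4 libraries gave 3.42 to 3.50. With 2 libraries against 2 the exact permutation test (two-sided) cannot go below p = 0.333, and it gave that value. The T48 libraries, whose TPM of ath-miR165a-3p differed 1.73-fold, thus had nearly the same balance of these 2 miRNAs.

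The ratio of hsa-miR-376a-5p to ptc-miR396f was 0.114 and 0.138 at T0 and 0.672 and 0.741 at T48, 5.63-fold higher. That of rno-miR-337-3p to ptc-miR396f was 0.0242 and 0.0277 at T0 and 0.0714 and 0.0848 at T48, 3.01-fold higher, and that of ath-miR168a-5p to ptc-miR396f was 0.0127 and 0.0125 at T0 and 0.0627 and 0.0400 at T48, 3.97-fold higher. All 4 miRNAs set against ptc-miR396f gained on it in both T48 libraries. They share this denominator, which was itself lower at T48 by a log2 difference of -2.23, so the 4 ratios are not separate results. The ratio of ath-miR165a-3p to ath-miR168a-5p was 18.7 and 20.0 at T0 and 43.3 and 65.9 at T48, where the libraries stayed apart. The order of ath-miR164a and ath-miR160a-5p was turned over, with a ratio of 17.8 and 21.1 at T0, 1.00 and 0.918 at T24, then 0.486 and 0.585 in the T48 libraries. This pair sets a miRNA that was lower at T48 against the largest upward difference of the 19. The ratio of pte-miR-11943-3p to ath-miR165a-3p was 0.0205 and 0.0140 at T0, 0.0251 and 0.0363 at T24, and 0.0194 and 0.0204 in the T48 libraries, so the T0 and T48 values overlapped and the T24 values lay above both.

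**Figure D3:**
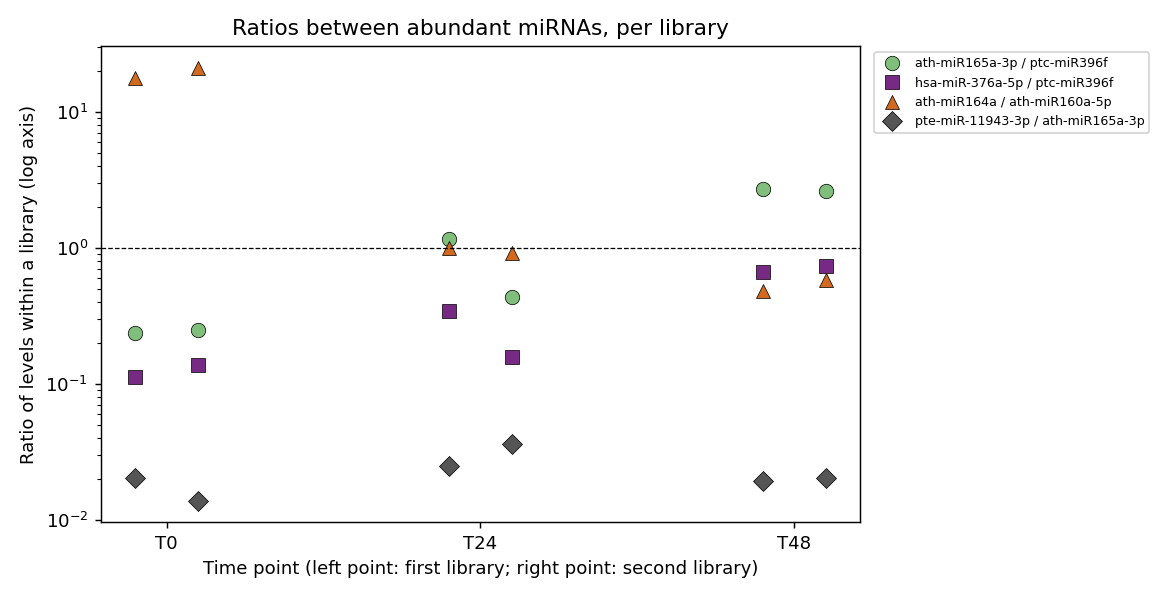
Points give the ratio of 2 miRNA levels within 1 library (log axis), for both libraries at T0, T24 and T48, and the dashed line marks a ratio of 1. The ratio of ath-miR165a-3p to ptc-miR396f passes from 0.236 and 0.251 at T0 to 2.72 and 2.63 at T48, that of ath-miR164a to ath-miR160a-5p from 17.8 and 21.1 to 0.486 and 0.585, and that of pte-miR-11943-3p to ath-miR165a-3p stays between 0.0140 and 0.0363.

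Over all 369 members, 47 were called at an unadjusted limma p of at most 0.05 and at least 2-fold, which is 12.7%. The lowest adjusted p was 0.0859, and an adjusted p of at most 0.05 was reached by 0 of the 47. The 15 higher at T48 were 4.07% of the members and the 32 lower 8.67%. Without the first or the second T0 library the count was 108 or 164, and without the first or the second T48 library 96 or 95. The calls follow presence in the list. All 14 members listed at 0 throughout T0 but above 0 in both T48 libraries were called, and all 32 with the opposite pattern were called. The only call outside these patterns was cel-miR-77-5p, with 0 and 63.0 TPM in the T0 libraries and 7089 and 1316 TPM at T48. For values set against 0 no fold is printed.

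Among the calls, those that rose had a higher median level than those that fell had started from. The limits were unequal, since 3 reads are 46.2 TPM in the first T48 library but 19.4 and 17.2 TPM at T0. Low rises were thus less likely to be listed than low falls. The mean T48 level of the 15 called upward was 73.9 to 9840 TPM, with a median of 700.2 TPM, and they held 3.37% and 1.18% of the T48 reads. The mean T0 level of the 32 called downward was 42.7 to 1658 TPM, with a median of 139 TPM, and they held 1.02% and 1.04% of the T0 reads. Of the 14 that rose from 0, 11 were above 0 in at least 1 T24 library but only 4 in both, so the T24 libraries disagreed for 7. Of the 32 that fell to 0, 5 were above 0 in at least 1 T24 library and 2 in both.

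Of the 14 rises from 0 in both T0 libraries, the highest at T48 was gga-miR-1799, with 4100 and 5309 TPM at T24, then 13732 and 5948 TPM at T48. Next came osa-miR396e-5p (above) and dvi-miR-9696a-5p, which had 2204 and 630 TPM at T48 and 897 and 558 TPM at T24. For gma-miR5679 the T48 libraries were close, at 1264 and 1040 TPM, while at T24 it had 1007 and 0 TPM. The levels of efu-miR-9225 were 940 and 460 TPM at T48, and those of hsa-miR-7161-3p 1356 and 345 TPM. One of the 8 largest rises, cin-miR-4158-5p, was at 0 in both T24 libraries as well and had 1187 and 635 TPM at T48. Outside the 8 largest, nve-miR-2050-5p (108 and 55.0 TPM) and cin-miR-4027-5p (108 and 40.0 TPM) were likewise first listed at T48.

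Among the 8 largest falls to 0 at T48, bta-miR-2450b had 1816 and 1501 TPM at T0, bta-miR-507-3p 1150 and 1215 TPM, and hsa-miR-448 1163 and 1157 TPM. The T0 libraries were close to each other in all 3. Next were gga-miR-30b-3p with 724 and 802 TPM, hsa-miR-5580-5p with 775 and 728 TPM, and ppt-miR11317, a moss-type name, with 510 and 624 TPM. In sko-miR-4835-5p the T0 levels of 446 and 332 TPM had dropped to 94.4 and 112 TPM at T24, and mdo-miR-7246-3p, with 414 and 286 TPM at T0, still had 395 TPM in the second T24 library. Against this, hsa-miR-553 was higher at T24 (559 and 402 TPM) than at T0 (142 and 229 TPM) before it was listed at 0 at T48.

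**Figure D4:**
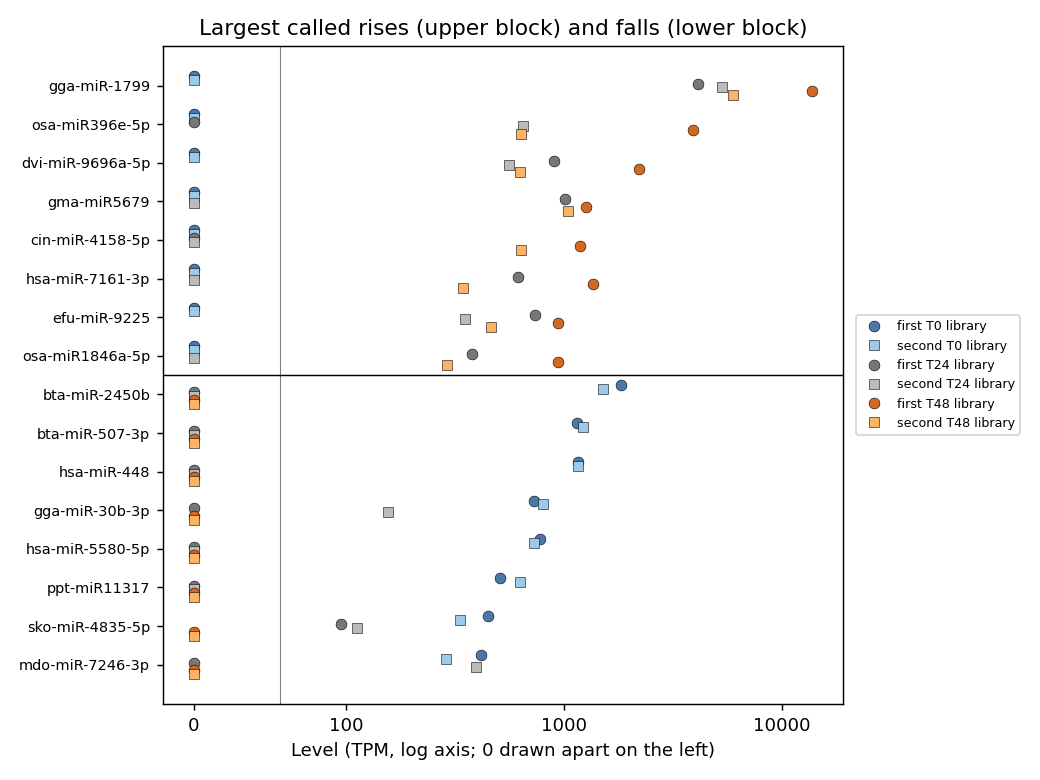
Levels (TPM, log axis, with 0 drawn apart on the left) of the 8 largest called rises and the 8 largest called falls between T0 and T48, in all 6 libraries. All T0 points of the rises and all T48 points of the falls lie at 0, and the T24 points show 7 of the 8 rises above 0 in at least 1 T24 library and 3 of the 8 falls.

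Some of these names stand for the same place in the carrot genome. Precursors on the same strand that overlap by 1 nucleotide or more tie 25 of the member names into 12 sets with 2 or more members, and in each of the 12 no library listed more than 1 name of a set. The name of a set could thus differ between libraries. The clearest case is gsa-miR-2a-5p, called upward with 0 and 0 TPM in the T0 libraries and 216 and 40.0 TPM at T48, and ppc-miR-8348-5p, called downward with 142 and 103 TPM in the T0 libraries and 0 at T48. Their precursors overlap, and with the names merged the log2 difference was -0.37 (limma, adjusted p = 0.867), so both calls were lost.

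The call of osa-miR1846a-5p (0 and 0 TPM at T0, 940 and 290 TPM at T48) was lost as well. Its precursor overlaps that of sko-miR-4835-3p, which had 407 TPM in the first T0 library and 0 elsewhere. Here the merged log2 difference was still upward, at 4.70 (limma, adjusted p = 0.387). The second T0 library stayed at 0, so the pseudocount enters its size. Among names outside the calls, mir-59 had 1237 TPM in the second T0 library and mir-73 at the same precursor 709 TPM in the first T48 library. Merging left 48 calls among 356 names, 43 of them under a name that was also among the 47. Only gsa-miR-2a-5p, ppc-miR-8348-5p and osa-miR1846a-5p lost their calls, and other calls were gained, so the count itself moved little. Split names can also hide a pattern. At 1 precursor, gga-miR-10585-5p had 136 TPM in the first T0 library and cin-miR-4048-3p 172 TPM in the second, and both were at 0 at T48.

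Among the 369, the number above 0 was lower at T48. It was 193 and 135 in the T0 libraries and 89 and 93 in the T48 libraries, a mean of 164 ± 41.0 (SD, n = 2) against 91 ± 2.83 (SD, n = 2). The T0 libraries differed from each other by nearly as much as the time points did, and the exact permutation test (two-sided) gave p = 0.333, the smallest that 2 against 2 allow. At an equal depth of 64886 reads the expected numbers were 190.2, 133.7, 89.0 and 90.2. They count a name drawn with at least 1 read. The fewest reads of any listed name were 3, 4, 3 and 3 in the same order, and the expected numbers do not apply this lower bound. Above the 3-read limit of the shallowest library (46.2 TPM) the numbers were 155, 118, 85 and 70.

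The libraries of a time point shared few names. Both T48 libraries held 36 names, which is 40.4% of the list of the first and 38.7% of the list of the second. A further 53 were found only in the first and 57 only in the second. Both T0 libraries held 57 names, 29.5% of the list of the first and 42.2% of that of the second. The 36 names took 88.2% of the reads of the first T48 library but 51.0% of the second, where oan-miR-1421ag-5p alone made up most of the rest. Of the 36, 19 were in both T0 libraries and 14 in neither, and 29 were above 0 in at least 1 T24 library.

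In 33 of the 36 shared names the first T48 library had the higher TPM, with a median ratio of 2.10. When the reads of oan-miR-1421ag-5p were left out of the totals, the first was higher in 21 and the median ratio was 1.12. Over the 19 names above 0 in all 4 libraries the median ratio went from 1.73 to 0.920 in the same way. The scatter around it does not depend on the totals, with an SD of 0.71 on the log2 scale between the T48 libraries against 0.51 between the T0 libraries over the same 19.

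The names of single T48 libraries included very abundant ones. In the second T48 library oan-miR-1421ag-5p had 468448 TPM, which is 93648 reads, and it was listed at 0 in the first, where the same share would give 30396 reads. It was at 0 in both T0 libraries. In the first T48 library hpo-miR-232a-5p had 92578 TPM, or 6007 reads, and it was at 0 in the second, where the same share would give 18507 reads. Its T0 levels were 31572 and 30082 TPM and its T24 levels 27204 and 0 TPM. The direction for hpo-miR-232a-5p thus depends on the T48 library taken, with a log2 difference of 1.59 in the first alone, while the second lists it at 0. The cause of these 2 absences was not tested.

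Other names of the second T48 library were aca-miR-5406-5p, with 11405 TPM (2280 reads, against 740.0 expected in the first at the same share), and mir-32, with 2456 TPM. The levels of cre-miR909.2, gra-miR8632 and bmo-miR-283-3p were 1025, 540.2 and 470.2 TPM. Of these, cre-miR909.2 had 472 TPM in the first T0 library and gra-miR8632 298 TPM in the second, so neither was new at T48. Other names of the first T48 library were cbr-miR-54a-5p with 5147 TPM, mir-71 with 4161 TPM and mdo-miR-7387-3p with 1449 TPM, all at 0 at T0 and T24. The levels of sma-miR-8454-5p and str-miR-8369-5p were 2867 and 1526 TPM there, and each also had reads in the second T0 library (1495 and 252 TPM).

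Most single-library names were scarce, with a median of 9 reads in the first T48 library and 18 in the second. Of the 53 found only in the first, 49 would give at least 10 reads in the deeper second library at the same share, and 11 at least 100. Of the 57 found only in the second, 16 would give at least 10 reads in the shallower first, and 3 at least 100. At T0, efu-miR-9209c (1221 and 1266 TPM) and der-miR-9691-5p (452 and 521 TPM) were in both libraries, and at T48 only in the first, with 123 and 92.5 TPM, below T0 in both cases.

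**Figure D5:**
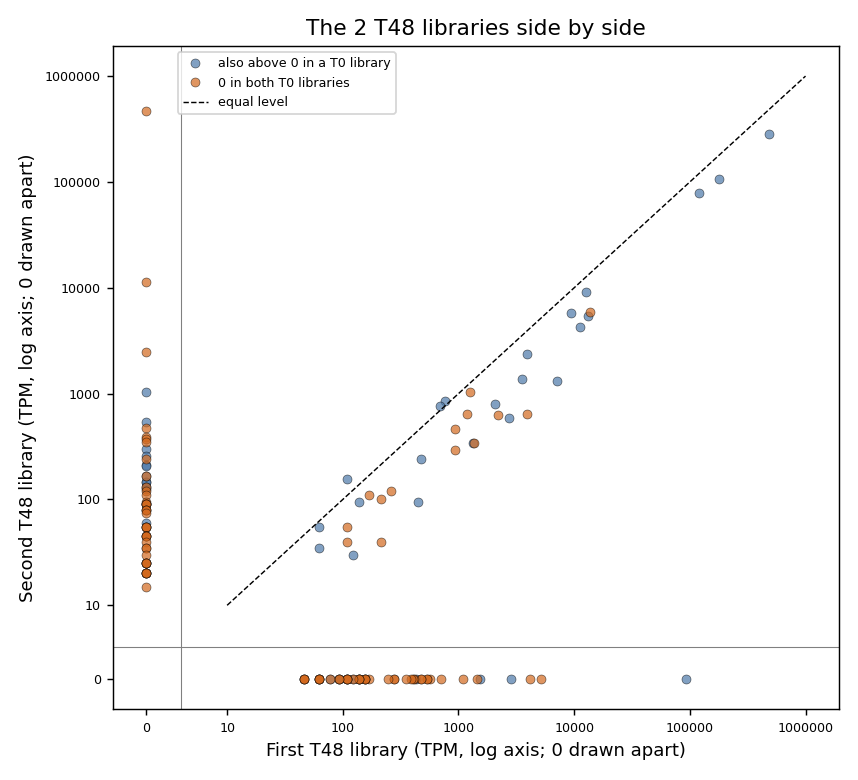
Each point is 1 of the 146 names above 0 at T48, with its TPM in the first T48 library across and in the second upward (both log axes, with 0 drawn apart). The 36 shared names lie mostly below the line of equal level, and the 53 and 57 names of a single library lie along the lower and left edges, with hpo-miR-232a-5p at 92578 and oan-miR-1421ag-5p at 468448 TPM at the far ends.

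By name class, the 26 members with names of conserved plant families took 82.2% of the reads in each T0 library and 68.4% and 39.4% at T48. The classes follow the names alone. Whether a sequence with an animal-type name belongs to a plant family was not tested. Animal-type names took 15.6% and 16.3% at T0 and 28.7% and 59.2% at T48. The mean difference was -28.3 percentage points for the first and 28.0 for the second (exact permutation test, two-sided, p = 0.333 each, the smallest possible). Without the reads of oan-miR-1421ag-5p these were -10.9 and 10.1 points, so that 1 name made up most of the mean shift. In the first T48 library that name was at 0 and had no part in the shift. In the second, the shares without it were 74.1% for conserved families and 23.2% for animal-type names. Of the 6 sequences that the study went on to test as mimics, which were chosen on these libraries and give no independent evidence, the summed share was 27.6% and 29.9% at T0 and 72.5% and 84.3% at T48.

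Among conserved families, 1 member was called upward (osa-miR396e-5p) and 1 downward, pab-miR482n, whose family targets resistance genes in tomato, with 58.2 and 57.3 TPM in the T0 libraries and 0 at T48. Such a level is near the 46.2 TPM that the first T48 library could miss, and the second T48 library listed another miR482 name, pab-miR482j, at 55.0 TPM. The 2 calls are 7.69% of the 26, against 12.7% of all members. Animal-type names had 11 called upward and 21 downward of 227, other plant-type names 3 and 3 of 45, and names without a known relative 0 and 6 of 54. The median fitted log2 difference was -2.30 for conserved families, -2.44 for other plant-type names, -2.77 for animal-type names and -2.77 over all members. Most members were at 0 in 3 of the 4 libraries, so the pseudocount sets the size of these medians and they are not read as folds.

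Of the names detected at T48, 9 of 16 conserved family members were in both T48 libraries (56.3%), as were 22 of 84 animal-type names (26.2%) and 1 of 18 names without a known relative (5.56%), against 24.7% over all. Some families were above 0 in only 1 of the 4 libraries, and no change can be read for them. In the first T0 library were aqc-miR167 (233 TPM), osa-miR395u (110 TPM), both miR398 names (136 TPM together) and both miR319 names, whose Arabidopsis targets are TCP factors, with 1370 TPM together. Of these, ppt-miR319a also had 323 TPM in the first T24 library, and its precursor was listed as dme-miR-286-5p in the second T0 library (51.6 TPM) and the first T48 library (139 TPM). The second T0 library held ptc-miR408-5p (178 TPM). In the second T48 library were ath-miR156a-5p (30.0 TPM), vca-miR393-3p (55.0 TPM), sbi-miR397-3p (20.0 TPM) and bdi-miR827-5p (45.0 TPM), all at or below the 46.2 TPM that the first T48 library could miss except vca-miR393-3p. Names of families described above that were above 0 in 1 of the 4 libraries were bdi-miR166e-3p (25.8 TPM) and cme-miR164b (38.8 TPM) in the first T0 library, ath-miR170-3p (61.6 TPM) in the first T48 library and pab-miR482j (55.0 TPM) in the second, which also had 63.0 TPM in the first T24 library. A second miR171 name, ath-miR171b-3p, had 245 and 298 TPM in the T0 libraries and 0 and 60.0 TPM at T48, lower in both T48 libraries.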

How the data were processed

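Small RNA of shredded carrot was sequenced from 2 libraries each at T0, T24 and T48. Per the methods, the authors trimmed adaptors with cutadapt, dropped reads under 18 nucleotides and of mean quality under 20, and matched the rest to miRBase with at most 1 mismatch and up to 200 positions. No genome build is given in the sources used here. The deposited values, named TPM, are RPM values, which the authors scaled to 1000000 per library. All 737 values above 0 were whole multiples of 1 read (within 0.001 reads), which gave the depths of 64886 to 199911 reads and a precision of 5.00 to 15.4 TPM per read. As these are scaled values, no count model was the main test.

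T48 was compared with T0 by limma 3.58.1 (R 4.3.3) on log2(TPM + 1), over the 369 miRNAs present in any of the 4 libraries. This scale slightly understates changes between low values above 0, and the pseudocount of 1 sets the size of any change against 0. A call required 2-fold and an unadjusted p of at most 0.05, 1 of 2 rules the methods give (the other, an adjusted p of at most 0.5, was an alternative), with Benjamini-Hochberg adjusted p beside them. Folds for miRNAs present in all 4 come from the fit on those alone. Pooled SDs are on the log2(TPM + 1) scale. Single values per library were compared by exact permutation tests. Tables were handled in Python 3.11.15 with pandas 2.3.3, and the fit was tested on simulated data. Alternatives were pseudocounts, filters, scalings, a variance trend, voom, a replicate block, adjusted p, merged precursors and single libraries left out.

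Named miRNAs are those of the qPCR list of the study, all above 0 in all 4 libraries, the 8 largest rises and falls among called miRNAs without overlap, the 6 highest of each T48 library at 0 in the other, and conserved family members. Other names were added after their values were seen. Members and lists were chosen with earlier results of these data known. Sequences and precursor overlaps come from the supplementary tables, never their values. The qPCR, target and adipocyte data were not used here.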

Additional observations from a re-analysis of the deposited data

Results flagged for a closer look

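Of the members at 0 in both T0 libraries and in 1 T48 library, 4 were above 0 in both T24 libraries, which the comparison of T48 with T0 does not use. The most abundant were oan-miR-1421ag-5p, with 547148 and 506053 TPM at T24, and aca-miR-5406-5p, with 10789 and 9865 TPM. Both were above the T0 level of 0 in every T24 library and in the second T48 library, so the first T48 library was the only stored one without them.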

How the results depend on the processing

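The 47 calls became 11 with the 19 present in all 4 libraries tested alone, 72 with voom on the recovered reads (44.4% of them upward against 31.9%), 342 at an adjusted p of at most 0.5 and 0 at an adjusted p of at most 0.05, where voom gave 40 and 47 had an unadjusted p of at most 0.05. With single libraries left out the count was 95 to 164, the lone library being assumed to vary like the others, and the upward share 3.66% to 61.1%. A fit with the replicate block called 22, all among the 47. The numbers come only from title endings, and same-numbered deviations had a correlation of -0.05, so pairing was not assumed. The other 9 alternatives gave 46 to 56 calls. For miRNAs above 0 in all 4 libraries, median-of-ratios scaling shifted the log2 difference by about -0.12 and totals without oan-miR-1421ag-5p by about 0.46, while names of a single library shifted by other amounts. The latter turned the sign of dya-miR-9681-5p (0.45), ath-miR396a-5p (0.41) and ath-miR168a-5p (0.21), and voom that of str-miR-8369-5p (-2.09) and sma-miR-8454-5p (-2.62). Without single libraries, the log2 difference ran from -0.68 to 0.68 for dya-miR-9681-5p, -0.32 to 0.22 for ath-miR396a-5p, -0.94 to 0.46 for ath-miR168a-5p, -0.042 to 0.56 for hsa-miR-376a-5p, -3.99 to 6.58 for str-miR-8369-5p, -5.27 to 6.21 for sma-miR-8454-5p, -4.44 to 5.56 for cre-miR909.2, -4.11 to 4.97 for gra-miR8632 and -14.91 to 1.59 for hpo-miR-232a-5p. For the last 5, values at 0 enter, so the pseudocount sets the size and only the change of sign is read. The cause was not tested. None of these was called. Differences in the number of miRNAs kept their direction in all alternatives (-102 to -44 without single libraries), as did the shares of conserved families (-42.8 to -13.7 points) and animal-type names (12.8 to 43.3 points). Depth limits values under 46.2 TPM in the first T48 library.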

Other observations

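Some members in part of the libraries were not called. For gga-miR-1595-5p the levels were 0 and 458 TPM at T0, 0 in both T24 libraries, and 771 and 860 TPM at T48, above both T0 values. For ppe-miR8129-3p, in contrast, the T0 levels of 252 and 332 TPM and T24 levels of 386 and 335 TPM were steady before 0 and 165 TPM at T48, and cel-miR-55b had 84.0 and 252 TPM in the T0 libraries and 108 and 0 TPM at T48.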
